A study of Mus musculus with 12 samples.

Results

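Interferons protect cells from viruses through the genes they switch on. The 10 genes described here, *Ifit1*, *Ifit3*, *Ifitm2*, *Ifitm3*, *Bst2*, *Xaf1*, *Rtp4*, *Samhd1*, *Rsad2* and *Rnf213*, encode proteins of this antiviral group and were chosen by name among the 23022 genes listed for B16-F10 cells, a mouse melanoma line. All 10 were listed, and all 10 were among the 11663 genes tested, which reached 1 TPM (a length-corrected share of the transcripts of a library) in 3 or more libraries. With the untreated NTC libraries alone, 9 of the 10 would have passed that filter and *Ifit1* would not. RNA was sequenced from 12 libraries in 4 groups of 3. All groups were B16-F10 cells expressing Cas9. NTC cells carried a control guide RNA, which the study calls non-targeting and the sample labels call a no template control, and DKO cells carried paired guides against *Mbnl1* and *Mbnl2*, the genes of 2 RNA-binding splicing factors. Cells of each genotype were left unstimulated or treated with interferon gamma (IFNγ). The study describes polyclonal knockout cells in which some MBNL protein remained, and also monoclonal knockout lines. Which of them gave these libraries is not stated for each sample. The question asked of each gene was whether DKO cells differed from NTC cells in the untreated level, in the response to IFNγ, or in both.

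Type I interferons act through a factor complex that contains IRF9 and binds the interferon-stimulated response element (ISRE), while IFNγ acts through factors that bind the gamma-activated sequence (GAS) and raises IRF1, which also binds ISRE-like elements. The products act at different steps of infection. IFIT proteins bind viral RNA, IFITM proteins hinder the fusion of virus with cell membranes, BST2 holds new virus particles at the cell surface, and the enzymes RSAD2 and SAMHD1 alter the nucleotide supply.

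As a check of the labels, *Mbnl1* had a mean of 56.5 TPM in untreated NTC and 42.1 TPM in untreated DKO cells, and *Mbnl2* 102.5 against 89.1 TPM, so RNA of both genes was still measured in DKO cells. The values are shares of a library and carry no read depth. The listed genes of a library summed to between 844185 and 874612 TPM in NTC and between 805782 and 827191 TPM in DKO libraries, and 7 markers of the melanocyte lineage summed to between 16650 and 18640 TPM in NTC and between 11120 and 12410 TPM in DKO libraries. All 7 leukocyte markers examined together summed to between 1.85 and 4.30 TPM in NTC and between 2.87 and 6.84 TPM in DKO libraries. Of these, *Ptprc*, *Cd3e* and *Nkg7* were listed at 0 in all 12, while *Cd68* (1.51 to 6.49 TPM) and *Lyz2* (0.325 to 1.32 TPM) were above 0 in all 12. The part of these shifts in the results was not tested. In bulk RNA, fewer cells expressing a gene and less RNA per cell cannot be told apart. Nothing states that replicates came from separate cultures, so p-values measure only the spread between these libraries.

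The stretches upstream of 6 genes are shown because they hold the letters to which interferon-activated factors are known to bind, and because these genes did not respond alike. The 250 bases before the start of each gene were searched on both strands for the core of the ISRE and for the GAS. The letters matched are those in capitals. RefSeq promoter sequences of the mouse assembly GRCm38.p6 were matched by symbol for 9 of the 10 genes, all but *Rtp4*. Each line reads 5′ to 3′ on the strand of the gene, so an ISRE on the opposite strand reads as its reverse complement.
Ifit1, chr19:34640760-34640838, plus strand: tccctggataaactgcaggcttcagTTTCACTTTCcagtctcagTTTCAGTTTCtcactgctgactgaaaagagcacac
Ifit3, chr19:34583348-34583441, plus strand: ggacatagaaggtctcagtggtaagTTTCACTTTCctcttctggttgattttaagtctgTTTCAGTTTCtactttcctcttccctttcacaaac
Rsad2, chr12:26456538-26456597, minus strand: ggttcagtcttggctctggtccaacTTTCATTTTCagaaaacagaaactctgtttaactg
Ifitm2, chr7:140955973-140956032, minus strand: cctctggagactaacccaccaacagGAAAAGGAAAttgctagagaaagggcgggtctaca
Bst2, chr8:71537562-71537633, minus strand: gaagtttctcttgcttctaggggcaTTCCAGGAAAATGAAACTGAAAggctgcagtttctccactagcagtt
Samhd1, chr2:157135298-157135346, minus strand: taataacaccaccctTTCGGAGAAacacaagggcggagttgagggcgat

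*Ifit1* and *Ifit3*, both on chromosome 19, each held 2 ISRE matches with the same letters, TTTCACTTTC and TTTCAGTTTC. These lay between 76 and 104 bases before the start of *Ifit1* and between 113 and 156 bases before that of *Ifit3*. *Bst2* held a GAS match that overlapped the first of 2 ISRE matches, which overlapped each other. *Rsad2* and *Ifitm2* held 1 ISRE match each, and *Samhd1* held 1 GAS match. Neither motif was found in this window of *Ifitm3*, *Xaf1* or *Rnf213*. Distances are from the RefSeq start, which differs from the GENCODE start for some genes. Among the genes printed, the RefSeq starts of *Samhd1*, *Ifit1* and *Ifitm2* lie inside their GENCODE genes, so part of their 250 bases does too. The printed stretch of *Ifitm2* runs into its GENCODE gene, although its letters in capitals lie outside it. For *Rnf213*, neither end of the sequence after the RefSeq start was found in its GENCODE transcripts. Of 32851 mouse promoters of the same length, 2.98% held the ISRE core and 7.02% the GAS. *Ifit1*, *Ifit3*, *Bst2* and *Rsad2*, with ISRE matches, rose with IFNγ in both genotypes below. *Ifitm2*, also with an ISRE match, did not respond, while *Ifitm3* and *Xaf1*, with no match in this window, rose in both. *Samhd1*, with a GAS match, was called in NTC cells only, and *Rnf213*, with no match, in DKO cells only. Whether the matches bear on the responses was not tested.

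In NTC cells, 8 of the 10 genes rose with IFNγ, all but *Ifitm2* and *Rnf213*, where 7.31% of all tested genes rose. In DKO cells, 8 of 10 rose as well, all but *Ifitm2* and *Samhd1*, against 0.677% of all tested genes. The 10 were chosen with earlier results of these data known, so these shares do not measure how unusual their responses are. The median log2 difference of the 10 genes was 1.09 in NTC and 0.89 in DKO cells, beside medians of 0.02 and 0.01 over all tested genes. For none of the 10 did the difference between both responses pass the threshold in limma (0.0343% of all genes passed), and 3, *Ifitm3*, *Xaf1* and *Rnf213*, had an unadjusted p-value under 0.05. No other tool was run. Without IFNγ, 5 genes were higher in DKO than in NTC cells (*Ifit1*, *Ifit3*, *Ifitm2*, *Ifitm3* and *Xaf1*) and none was lower, where 17% of all genes were higher and 19.4% lower. The remaining 5 differed by −0.26 to 0.20 (log2), and 6 of the 10 had an unadjusted p-value under 0.05, the further one being *Rnf213*. With IFNγ, 3 were higher in DKO (*Ifit1*, *Ifit3* and *Ifitm2*) and 2 lower (*Bst2* and *Xaf1*), against 19.5% and 23.9% of all genes. The 5 comparisons share libraries and are not independent of one another. The balance of calls over all genes depended on scaling. Of the genes called with IFNγ in NTC cells, 60.5% were higher as deposited, 45.1% after equalising the library sums and 48.8% after median-ratio scaling. For DKO against NTC, these shares were 46.7%, 60.7% and 48.6% without IFNγ and 44.9%, 65.3% and 48.4% with it.

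**Figure D1:**
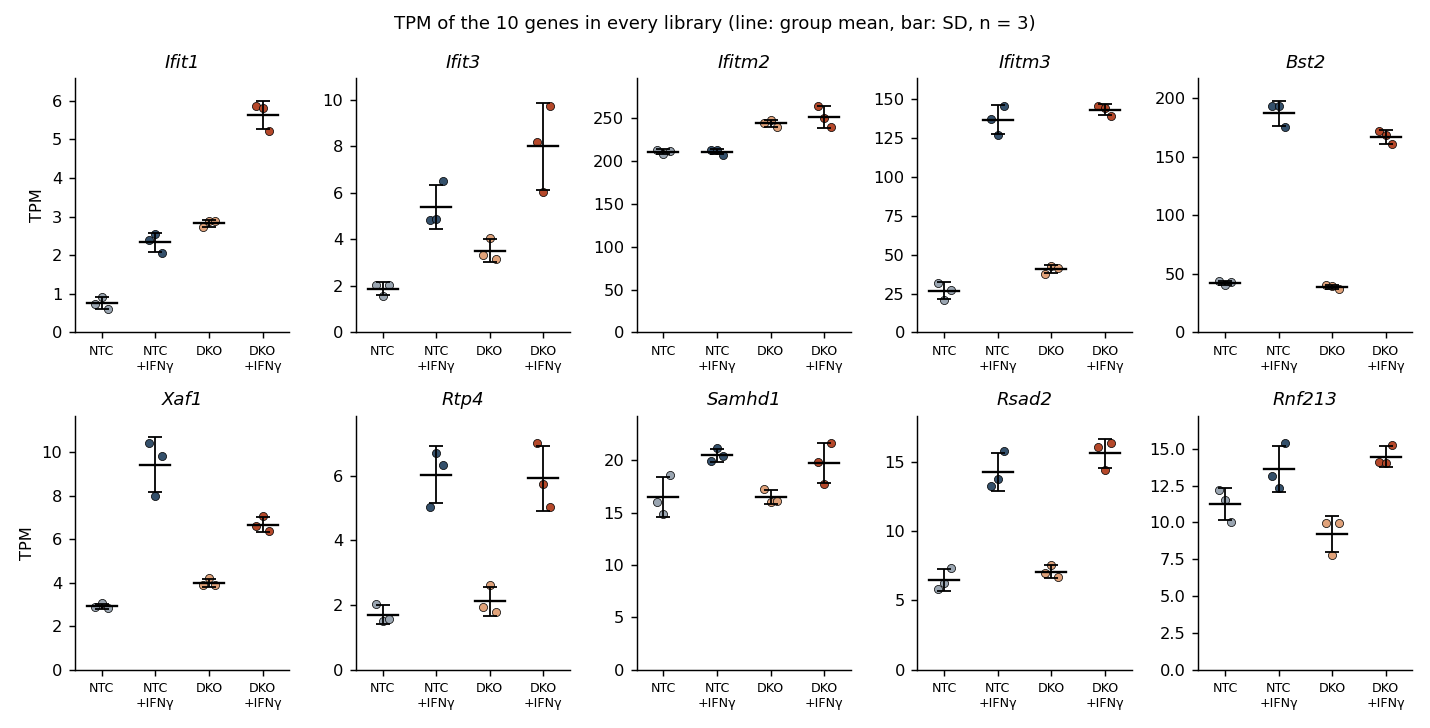
TPM (vertical axis, linear, from 0) of the 10 genes in each of the 12 libraries, by genotype and IFNγ treatment. Points are libraries, horizontal lines group means and bars the SD of 3 libraries. The untreated DKO points of *Ifit1*, at 2.72 to 2.89 TPM, lie above the treated NTC points at 2.05 to 2.55 TPM, and those of *Ifitm2* do not separate by treatment.

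TPM allow for gene length, so levels can be set in order. In untreated NTC cells the mean level fell in the order *Ifitm2* (211 TPM), *Bst2* (42.3 TPM), *Ifitm3* (26.9 TPM), *Samhd1* (16.5 TPM), *Rnf213* (11.3 TPM), *Rsad2* (6.46 TPM), *Xaf1* (2.93 TPM), *Ifit3* (1.88 TPM), *Rtp4* (1.71 TPM) and *Ifit1* (0.749 TPM). The libraries of *Ifit3* and *Rtp4* overlapped, while every other pair of neighbours in this order was separate. With IFNγ, *Bst2* and *Ifitm3* followed *Ifitm2* in NTC cells at 187 and 137 TPM, and *Ifit1* had the lowest mean of the 10 in both genotypes, although its DKO libraries then overlapped those of *Rtp4*.

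*Ifit1*, whose protein binds viral RNA that lacks the methyl marks of host caps (ENSMUSG00000034459, GRCm38 chr19:34640871-34650009), had the greatest genotype difference of the 10 in untreated cells. Untreated NTC libraries held 0.733, 0.912 and 0.603 TPM, and untreated DKO libraries 2.72, 2.89 and 2.88 TPM. With IFNγ, NTC libraries held 2.40, 2.55 and 2.05 TPM and DKO libraries 5.88, 5.81 and 5.22 TPM. All 4 groups were separate, and each untreated DKO library lay above each treated NTC library. The untreated mean was 3.77 times as high in DKO as in NTC cells, a log2(TPM + 1) difference of 1.13 (SE 0.1001, adjusted p = 2.27e-06), which ranked 34 of 11663 genes. With IFNγ the difference was 0.99 (SE 0.1001, adjusted p = 5.82e-06). *Ifit1* rose by 0.93 (adjusted p = 8.29e-05) in NTC and by 0.79 (adjusted p = 0.000609) in DKO cells, and these responses differed by −0.14 (95% interval −0.44 to 0.17). Addition of 1 shrinks the differences of so low a gene. The TPM ratio of treated to untreated cells was 3.11 in NTC and 1.99 in DKO cells, and with a pseudocount of 0.1 the responses differed by −0.56, for which the adjusted p-value was 0.409. In TPM, DKO cells gained more, 2.81 (SE 0.216) against 1.58 (SE 0.171).

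*Ifit3*, which encodes a partner that joins IFIT1 in a complex (ENSMUSG00000074896, chr19:34583531-34588731, plus strand), was likewise higher in DKO than in NTC cells in both conditions, with a wider spread, but its untreated DKO mean lay below its treated NTC mean. Untreated, the NTC libraries read 2.04, 1.55 and 2.04 TPM and the DKO libraries 3.31, 4.06 and 3.15 TPM. Treated, they read 4.83, 4.86 and 6.50 TPM for NTC and 8.20, 6.04 and 9.75 TPM for DKO. Untreated groups were separate, and treated groups overlapped through 1 DKO and 1 NTC library. The untreated level was higher by 0.65 in DKO cells (SE 0.152, adjusted p = 0.00457). The treated level was higher by 0.48 (SE 0.152, adjusted p = 0.0208), a call lost in 4 of the 12 fits that left out 1 library: without DKO IFNγ replicate 1 (0.45, adjusted p = 0.0622) or 3 (0.34, adjusted p = 0.0901) and without NTC IFNγ replicate 1 (0.42, adjusted p = 0.0691) or 2 (0.42, adjusted p = 0.0733). *Ifit3* rose with IFNγ by 1.15 in NTC and 0.98 in DKO cells (adjusted p = 0.000601 and 0.00386), responses that differed by −0.17 (95% interval −0.63 to 0.29). Of the 50-base words in the transcript of *Ifit3*, 51.2% also occur in *Ifit3b*, so reads of the pair may be exchanged. *Ifit3b* had group means of 0.517, 1.199, 0.960 and 1.80 TPM in untreated NTC, treated NTC, untreated DKO and treated DKO cells and passed the threshold in none of the comparisons.

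The IFITM genes on chromosome 7 encode small membrane proteins and moved differently from each other. *Ifitm2* (ENSMUSG00000060591, chr7:140954837-140955987, minus strand) read 213, 208 and 212 TPM without and 213, 213 and 207 TPM with IFNγ in NTC libraries. In DKO cells it read 245, 248 and 240 TPM untreated and 265, 250 and 240 TPM treated. Every DKO library stood above every NTC library, and treated and untreated libraries overlapped within each genotype. *Ifitm2* was higher in DKO cells by 0.21 without IFNγ (SE 0.0394, adjusted p = 0.00114) and by 0.25 with it (SE 0.0394, adjusted p = 0.000234), ratios of 1.16 and 1.19. Its log2 difference with IFNγ was 0.00 in NTC (95% interval −0.09 to 0.08) and 0.04 in DKO cells (95% interval −0.04 to 0.13). A share of 48.5% of its 50-base words also occurs in other genes, mostly *Gm45717*. That gene overlaps exons of *Ifitm2* on the same strand and is not among the listed genes.

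*Ifitm3* (ENSMUSG00000025492, chr7:141009586-141010770, minus strand), the family member best known for blocking influenza virus, rose strongly in both genotypes. Untreated NTC libraries read 32.1, 21.0 and 27.5 TPM and untreated DKO libraries 37.8, 42.9 and 41.5 TPM. With IFNγ, NTC libraries read 137, 127 and 146 TPM and DKO libraries 146, 145 and 139 TPM. The genotypes were separate without IFNγ and overlapped with it. *Ifitm3* was higher in untreated DKO cells by 0.60 (SE 0.110, adjusted p = 0.000858), while with IFNγ they differed by 0.07 (95% interval −0.17 to 0.31, adjusted p = 0.646). It rose by 2.33 in NTC and by 1.79 in DKO cells (adjusted p = 8.46e-09 and 2.04e-07). The response in DKO cells was smaller by 0.53 on the log2 scale (95% interval of the difference −0.87 to −0.20), which did not pass over all genes (adjusted p = 0.364, and 0.144 to 0.629 over the alternatives). In TPM the gain was 110.0 (SE 6.27) in NTC and 102.6 (SE 2.50) in DKO cells, so the DKO gain was 93.3% of that in NTC cells while the untreated level was 1.52 times as high.

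*Bst2* encodes tetherin (ENSMUSG00000046718, chr8:71534255-71537456, minus strand) and had the smallest standard error of a log2 difference among the genes that rose. Untreated, NTC libraries read 43.9, 40.2 and 42.8 TPM and DKO libraries 40.2, 39.8 and 37.1 TPM, with overlap. With IFNγ, NTC libraries read 193.5, 193 and 175 TPM and DKO libraries 172, 169 and 160.4 TPM, every DKO library below every NTC library. *Bst2* rose by 2.12 in NTC (SE 0.0532, adjusted p = 9.61e-12) and by 2.07 in DKO cells (adjusted p = 2.45e-11), and the responses differed by −0.05 (95% interval −0.21 to 0.11). The untreated difference was −0.11 (adjusted p = 0.117). The treated level was lower in DKO cells by 0.16 on the log2 scale (−0.16, SE 0.0532, adjusted p = 0.0258), but with libraries scaled to the same total the difference was −0.07 (adjusted p = 0.277). It also lost the call without DKO IFNγ replicate 3 (−0.13, adjusted p = 0.0813) and without NTC IFNγ replicate 1 (−0.14, adjusted p = 0.0884) or 2 (−0.14, adjusted p = 0.0919).

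**Figure D2:**
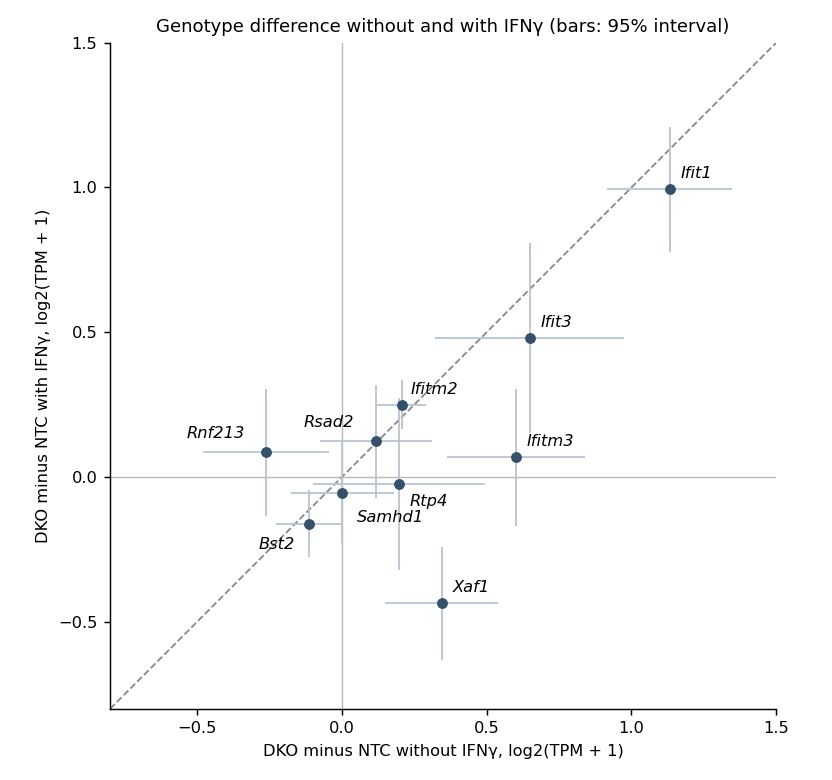
Difference between DKO and NTC cells in log2(TPM + 1) without IFNγ (horizontal) and with IFNγ (vertical) for the 10 genes, with 95% intervals as bars. On the dashed diagonal the genotype difference is the same with and without IFNγ. *Ifit1* (1.13, 0.99) and *Ifitm2* (0.21, 0.25) lie near it, *Ifitm3* (0.60, 0.07) lies below it, and *Xaf1* (0.35, −0.44) lies below it and on the other side of 0.

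*Xaf1* encodes a binding partner of the apoptosis inhibitor XIAP that favours cell death (ENSMUSG00000040483, chr11:72301629-72313733, plus strand). It was the only one of the 10 called in opposite directions without and with IFNγ. Untreated, NTC libraries read 2.88, 3.06 and 2.85 TPM and DKO libraries 3.90, 4.20 and 3.89 TPM. Treated, NTC libraries read 10.4, 7.997 and 9.84 TPM and DKO libraries 6.60, 7.05 and 6.36 TPM. Each untreated DKO library stood above each untreated NTC library, and each treated DKO library below each treated NTC library. *Xaf1* was higher in untreated DKO cells by 0.35 (SE 0.0907, adjusted p = 0.0091) and lower with IFNγ (−0.44, SE 0.0907, adjusted p = 0.0018). It rose by 1.40 in NTC and by 0.62 in DKO cells (adjusted p = 3e-07 and 0.00234). Between genotypes the response differed by −0.78 (95% interval −1.06 to −0.50), which ranked 11641 of 11663 from the highest and did not pass over all genes (adjusted p = 0.0709, and 0.0403 to 0.229 over the alternatives). It passed in 1 of 18 alternatives, without NTC IFNγ replicate 2, the lowest treated NTC library (−0.88, adjusted p = 0.0403). In TPM, NTC cells gained 6.49 (SE 0.736) and DKO cells 2.68 (SE 0.227), 41.3% as much.

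*Rtp4*, whose product is an interferon-induced inhibitor of some viruses that also carries receptors to the cell surface (ENSMUSG00000033355, chr16:23520291-23614222, plus strand), read 2.03, 1.502 and 1.58 TPM in NTC without treatment, against 1.96, 2.61 and 1.77 TPM in DKO. With IFNγ, NTC libraries read 5.04, 6.71 and 6.34 TPM and DKO libraries 7.01, 5.75 and 5.03 TPM. Genotypes overlapped in both conditions, and treated libraries stood above untreated ones in both genotypes. *Rtp4* rose by 1.38 in NTC and 1.15 in DKO cells (adjusted p = 4e-05 and 0.000364), with a difference of −0.22 (95% interval −0.64 to 0.20). The genotype difference was 0.20 (95% interval −0.10 to 0.50) without IFNγ and −0.02 (95% interval −0.32 to 0.27) with it. Of the 50-base words of *Rtp4*, 11.6% also occur in *Gm45338*, which overlaps its exons on the same strand and is not among the listed genes.

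*Rsad2*, which encodes viperin, an enzyme that makes a chain-terminating nucleotide (ENSMUSG00000020641, chr12:26442746-26456452, minus strand), had the closest responses of the 10 genes. NTC libraries read 5.79, 6.25 and 7.33 TPM untreated and 13.2, 13.8 and 15.8 TPM with IFNγ. DKO libraries read 6.98, 7.57 and 6.68 TPM untreated and 16.1, 14.4 and 16.4 TPM with IFNγ. The genotypes overlapped in both conditions. *Rsad2* rose by 1.04 in each genotype (SE 0.0899, adjusted p = 8.75e-06 in NTC and 9.67e-06 in DKO), and the difference between the responses had a 95% interval of −0.27 to 0.28. Its untreated level differed by 0.12 (95% interval −0.08 to 0.31), and its treated level by 0.12 (95% interval −0.07 to 0.32).

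*Samhd1*, the gene of an enzyme that degrades deoxynucleotides (ENSMUSG00000027639, chr2:157097533-157135265, minus strand), moved little. It read 15.99, 14.9 and 18.6 TPM in untreated NTC, 19.96, 21.2 and 20.4 TPM in treated NTC, 17.2, 16.1 and 16.1 TPM in untreated DKO and 19.8, 17.8 and 21.7 TPM in treated DKO libraries. Treated libraries stood above untreated ones in both genotypes, and genotypes overlapped. *Samhd1* rose by 0.30 in NTC cells (SE 0.0820, adjusted p = 0.0339), a call held in 13 of 19 alternatives. Among fits without 1 library, it did not hold without untreated NTC replicate 1 (0.28, adjusted p = 0.0764) or 2 (0.23, adjusted p = 0.127), nor without NTC IFNγ replicate 2 (0.28, adjusted p = 0.108) or 3 (0.31, adjusted p = 0.0913). Without the filter the same 0.30 had an adjusted p = 0.0583, and without the variance trend 0.0540. In DKO cells the difference was 0.24 (95% interval 0.07 to 0.42, adjusted p = 0.327), and the responses differed by −0.06 (95% interval −0.31 to 0.19). The calls in NTC and not in DKO cells therefore do not show a difference between genotypes.

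*Rnf213* encodes a giant ubiquitin ligase that coats intracellular microbes (ENSMUSG00000070327, chr11:119393100-119487418, plus strand). It read 12.2, 11.5 and 10.03 TPM in untreated NTC, 13.2, 12.3 and 15.4 TPM in treated NTC, 9.94, 7.81 and 9.95 TPM in untreated DKO and 14.1, 14.1 and 15.3 TPM in treated DKO libraries. Untreated DKO libraries lay below untreated NTC libraries, and treated libraries of the genotypes overlapped. *Rnf213* rose in DKO cells by 0.60 (SE 0.102, adjusted p = 0.00789), against a value of 0.26 in NTC cells (SE 0.102, adjusted p = 0.105). The responses differed by 0.35 (95% interval 0.04 to 0.66, adjusted p = 0.417), the reverse sign to *Ifitm3* and *Xaf1*. The untreated difference of −0.26 did not pass (adjusted p = 0.0585), except without untreated NTC replicate 3 (−0.34, adjusted p = 0.0343) or NTC IFNγ replicate 3 (−0.26, adjusted p = 0.0450). The gain was 5.25 TPM (SE 0.816) in DKO and 2.39 TPM (SE 1.11) in NTC cells. *A930037H05Rik*, which overlaps exons of *Rnf213* on the opposite strand and is not among the listed genes, shares 5.69% of its 50-base words. Unstranded libraries do not separate the pair.

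**Figure D3:**
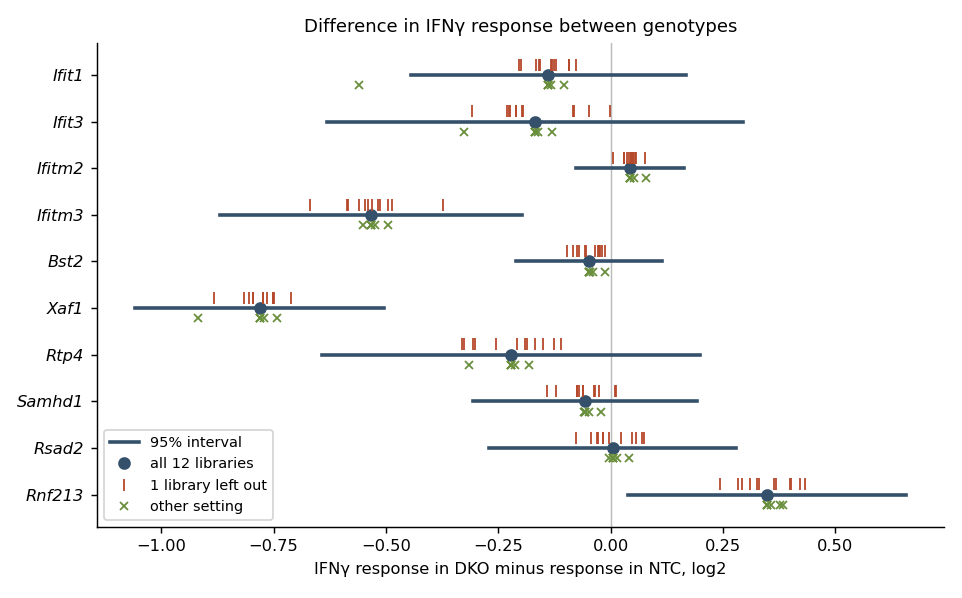
Difference between the IFNγ responses of DKO and NTC cells (horizontal, log2 scale, DKO minus NTC) for the 10 genes. Points and bars give the value from all 12 libraries and its 95% interval, ticks the fits without 1 library and crosses the other settings. The intervals of *Ifitm3* (−0.87 to −0.20) and *Xaf1* (−1.06 to −0.50) lie below 0, that of *Rnf213* (0.04 to 0.66) above 0, and the others include 0.

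Set side by side, the untreated level and the response divided the 10 genes into 4 kinds, a grouping made after the values were seen. *Ifit1* and *Ifit3* had a raised untreated level in DKO cells, their responses did not differ detectably, and their TPM gain in DKO cells was 177% and 127% of that in NTC cells, although for *Ifit3* the difference in gain, 0.963 TPM, was within its SE of 1.25. *Ifitm2* had a raised level with no IFNγ response in either genotype. *Ifitm3* and *Xaf1* had a raised untreated level and, in log2(TPM + 1), the lowest response differences of the 10, which did not pass over all genes either. With a pseudocount of 0.1 the responses of *Ifit1* differed by −0.56, near the −0.53 of *Ifitm3* in log2(TPM + 1). By response alone, the division between *Ifit1* and *Ifitm3* therefore depends on the pseudocount. For *Ifitm3* both genotypes reached like levels, 137 (SD 9.32) and 143 TPM (SD 3.41), while *Xaf1* stopped at 6.67 TPM (SD 0.351) in DKO against 9.42 TPM (SD 1.27) in NTC cells. *Bst2*, *Rtp4*, *Rsad2*, *Samhd1* and *Rnf213* had no raised untreated level in DKO cells, and their TPM gain in DKO cells was 88.5%, 88.2%, 109%, 82.1% and 220% of that in NTC cells. For *Rtp4*, *Rsad2* and *Samhd1* the difference in gain was within its SE. It was −16.7 TPM (SE 7.18) for *Bst2* and 2.86 TPM (SE 1.38) for *Rnf213*, DKO minus NTC. *Rnf213* was unlike the others of this kind, with an untreated difference of −0.26 and a response difference of 0.35, neither of which passed. These genes therefore share only the lack of a raised untreated level. The untreated level made up 50.2% of the treated level of *Ifit1* in DKO cells and 32.1% in NTC cells, and for *Xaf1* these shares were 59.8% and 31.1%. The untreated difference, the response difference and the gain are computed from the same untreated libraries and are not independent.

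**Figure D4:**
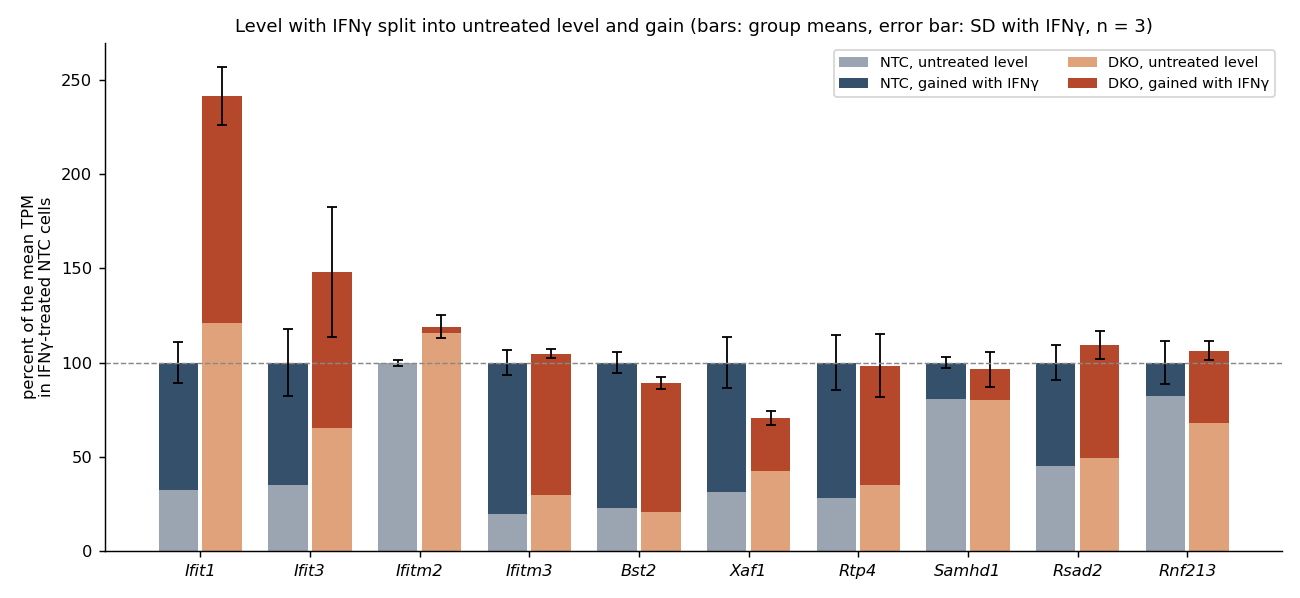
Mean level in IFNγ-treated cells, as percent of treated NTC cells (vertical axis, linear, from 0), split into the untreated level (light) and the part gained with IFNγ (dark) for NTC (left bar) and DKO (right bar). Error bars are the SD of 3 treated libraries. Gained TPM in DKO cells were 41.3% of those in NTC cells for *Xaf1*, 93.3% for *Ifitm3* and 177% for *Ifit1*.

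The same comparisons were made for 45 other antiviral genes, of which 27 were tested. With IFNγ, 9 of the 27 rose in NTC and 4 in DKO cells, beside 7.31% and 0.677% of all tested genes. The 4 were *Lgals3bp*, *Ifi27*, *Ifi35* and *Mov10*, which also rose in NTC cells, and the further 5 were *Oas1a*, *Cmpk2*, *Eif2ak2*, *Herc6* and *Oasl2*. *Lgals3bp*, which encodes a secreted glycoprotein, went from a mean of 47.6 to 126 TPM with IFNγ in NTC cells, against 60.6 to 149 TPM in DKO cells, log2 differences of 1.38 and 1.28. None of the 27 had a response difference that passed in limma, nor one with an unadjusted p-value under 0.05. Without IFNγ, 4 were higher in DKO cells, among them *Pml* (0.45), *Lgals3bp* (0.34) and *Mov10* (0.26), and 9 were lower, beside 17% and 19.4% of all tested genes, so the count of higher genes was near that background. The 4 lowest were *Oas1a* (−0.99), *Apobec3* (−0.65), *Oas1g* (−0.54) and *Ifi27* (−0.40). *Oas1a*, the gene of an enzyme that senses double-stranded RNA, had NTC means of 2.03 TPM without and 4.38 TPM with IFNγ, against DKO means of 0.525 and 0.939 TPM, although 57.6% of its 50-base words also occur in *Oas1g*. *Apobec3*, the gene of a cytidine deaminase that edits retroviral DNA, was at 73.8 TPM in untreated NTC and 46.7 TPM in untreated DKO cells. With IFNγ, 2 were higher in DKO cells (*Pml* and *Lgals3bp*) and 7 lower, beside 19.5% and 23.9% of all tested genes. The median untreated difference was 0.02 for these 27 genes and 0.20 for the 10, both lists chosen with earlier results of these data known.

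Of 18 genes for interferons, their receptors and their signaling, 14 were tested. *Ifnb1* and *Ifng* were listed at 0 in all 12 libraries. Among those reported here, in NTC cells *Irf9* (1.29), *Irf1* (1.14) and *Stat2* (0.36) rose and *Irf3* fell (−0.32). In DKO cells *Irf9* (0.96) and *Irf1* (0.93) rose. *Irf1*, the factor that relays part of the IFNγ response, was higher in untreated DKO cells (12.4 against 8.21 TPM, log2 difference 0.53, adjusted p = 7.83e-05). *Irf9*, the DNA-binding part of the ISRE-bound complex, was also higher (4.56 against 3.65 TPM, log2 difference 0.26, adjusted p = 0.0197), as were *Ifngr2* (0.60), *Irf3* (0.28) and *Ifnar1* (0.14), while *Ifnar2* was lower (−0.34). With IFNγ, *Ifnar2* was lower in DKO cells (−0.51), and *Ifngr2* (0.44), *Irf3* (0.42) and *Irf1* (0.33) were higher. None of the 14 passed in the test of response differences in limma, and 2 had an unadjusted p-value under 0.05. Whether these shifts bear on the 10 genes was not tested.

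Across the 12 libraries, the gene with the most similar profile to each of the 10 was taken by Pearson's r of log2(TPM + 1) over all tested genes, as a description in which all points share 4 group means. It was *Psmb10* for *Ifitm3* (0.993), *Tgtp1* for *Bst2* (0.998), *Tap1* for *Xaf1* (0.971), *Gbp3* for *Rtp4* (0.982), *Lgals3bp* for *Rsad2* (0.983), *M6pr* for *Ifit3* (0.984), *Srp68* for *Ifit1* (0.978), *Cmtm7* for *Ifitm2* (0.967), *Acsl4* for *Samhd1* (0.933) and *Ctsb* for *Rnf213* (0.927). *Tap1*, which encodes a peptide transporter of antigen presentation, had NTC means of 0.746 TPM without and 10.1 TPM with IFNγ, against DKO means of 1.15 and 6.44 TPM, the same order of the 4 groups as *Xaf1*. *Psmb10*, an immunoproteasome subunit, went from 10.3 to 59.7 TPM with IFNγ in NTC cells, against 13.6 to 59.3 TPM in DKO cells. Its group means, like those of *Ifitm3*, were apart without IFNγ and close with it. *Tgtp1* was listed at 0 in all untreated libraries. Pearson's r takes no account of the size of a change. From untreated NTC to treated DKO cells, means of *Srp68* went from 73.9 to 85.5 TPM, against 0.749 to 5.63 TPM for *Ifit1*. Those of *M6pr* went from 156.5 to 187.9 TPM, against 1.88 to 7.99 TPM for *Ifit3*. Among the 10, *Ifitm3* and *Rtp4* were the most alike (0.972), and *Ifitm2* was the least like the others, with values of −0.12 to 0.23 against all but *Ifit1* (0.797) and *Ifit3* (0.485).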

How the data were processed

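RNA-seq values of 12 libraries were used, 3 for each genotype and treatment, grouped by the sample labels. The deposited values are TPM estimated by the authors with RSEM 1.2.4, modified to call Bowtie, on a merged mouse annotation, from poly(A)-selected unstranded libraries. The file is named for counts, but its values are not whole numbers. TPM hold no read depth, and errors rest on the variation among replicate libraries. A gene was tested if 3 or more libraries reached 1 TPM. A linear model of log2(TPM + 1) with a mean for each group was fitted in limma 3.58.1 (R 4.3.3), its prior variance trending with expression. Two-sided p-values received Benjamini-Hochberg adjustment over the 11663 tested genes, with a threshold of 0.05. Gains in TPM are descriptions. All 10 genes are named. Of the 45 other antiviral genes, the 4 highest and 4 lowest called untreated differences, and those rising with IFNγ, are named, and the signaling genes are named where called. Some genes of these lists are not reported here by name. Gene names were matched by symbol or, for 6 older names, by gene ID. The genes and lists were chosen with earlier results of these data known. Positions and transcripts came from GENCODE M21 and promoters from RefSeq. Tables and plots used Python 3.11.15, numpy 2.4.6, pandas 2.3.3 and matplotlib 3.10.9. Simulated data with known differences served as a test of the code. Alternatives were a pseudocount of 0.1, no filter, a replicate block, 2 scalings, no variance trend, only the 6 libraries compared, and each library left out. The authors' splicing and other assays were not analysed here.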

Additional observations from a re-analysis of the deposited data

Results flagged for a closer look

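*Xaf1* was singled out because its genotype difference turned over with treatment. All 3 untreated DKO libraries stood above all 3 untreated NTC libraries, and all 3 treated DKO libraries below all 3 treated NTC libraries. The difference between the responses, DKO minus NTC, was −0.78 on the log2 scale, and the test of that difference over all genes gave an adjusted p-value of 0.0709 in limma, with a range of 0.0403 to 0.229 over the alternatives.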

How the results depend on the processing

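Over 19 alternatives (18 for the response difference, which needs all 4 groups), 901 of 940 values for the 10 genes kept their direction and side of the threshold, 14 lost the call, 3 gained it and 22 changed sign, none of these a called value. Of the 26 calls, 23 held under every alternative, all but those of *Samhd1* with IFNγ in NTC cells and of *Ifit3* and *Bst2* between treated genotypes. The sign changes lay near 0. Over fits without 1 library, the response of *Ifitm2* in NTC cells ran from −0.0102 to 0.0130, the response difference of *Samhd1* from −0.14 to 0.0127 and that of *Rsad2* from −0.0779 to 0.0752 (−0.0041 with a pseudocount of 0.1), the untreated difference of *Samhd1* from −0.0642 to 0.0877, and the treated differences of *Rtp4* from −0.13 to 0.0719 and of *Samhd1* from −0.12 to 0.0148. With equal totals the last 2 were 0.0506 and 0.0279. The causes were not tested.

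Over all genes, calls with IFNγ in NTC cells numbered 1411, 897 with no filter, 737 with no variance trend and 317 to 2023 without 1 library. Calls of a response difference numbered 4, 10 with no filter, 2 with the replicate block and 0 to 7 without 1 library. Without 1 library, response differences were called for 0 to 1 of the 10 genes, treated genotype differences for 3 to 5, and untreated genotype differences for 6 to 14 of the other antiviral genes against 13 with all libraries. The replicate block moved no count of the 10 genes: 8, 8, 0, 5 and 5. Same-numbered libraries of different groups did not deviate together (r from −0.18 to 0.18 over 18 pairs, against −0.22 to 0.21 over 36 pairs with different numbers), so numbers were not taken as pairs. TPM keep no depth, so how far depth limits *Ifit1*, at under 1 TPM in untreated NTC cells, is unknown.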
